A study of Rattus norvegicus with 44 samples.

Results

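The 14 untreated control pools described here were chosen by their labels from the 44 arrays of a study of growth factors in the newborn rat ovary. Whole ovaries of 4-day-old female Sprague-Dawley rats were kept in organ culture for 2 days (48 h), with fresh medium every 24 h and no growth factor. Each pool held the 2 or 3 ovaries of a single culture well, which came from different pups of the same litter, and each was hybridised to an Affymetrix Rat Gene array. No treated array and none of the controls of the separate CTGF set was used. The labels call the pools biological replicates 1 to 14, here controls 1 to 14. They do not give the litter of a pool or the dates of its culture, RNA processing and array run. The pools are separate wells that may or may not share a litter, a day of culture, RNA processing or an array run. Differences by well, litter, day, RNA processing and array run cannot be told apart. Because RNA came from whole ovaries, fewer cells of a type and less RNA per cell of that type cannot be told apart either.

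The ovary of a newborn rat holds its whole reserve of oocytes. Each oocyte is arrested in the first meiotic prophase and enclosed by flattened pregranulosa cells in a primordial follicle, and a few follicles begin to grow in the first days of life. Growing oocytes build the zona pellucida and release GDF9 and BMP15, and the granulosa cells around them turn on anti-Müllerian hormone and the inhibin subunits. Between the follicles lie fibroblast-like stroma, vessels and macrophages, and the organ is covered by a keratin-rich surface epithelium.

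The deposited log2 levels covered 27342 probe sets, of which 15097 carried exactly 1 gene symbol, and these gave 14324 genes, each read from its brightest probe set. A gene was counted as above background when its mean over the 14 pools was over 5.07, the 95th percentile of the means of 1124 olfactory receptor probe sets, which stand in for genes not used in the ovary. By this measure 9775 genes (68.2%) were above background. The spread given is the SD over the 14 pools in log2 units, in which 1 unit is a change by a factor of 2. Between any pair of pools the levels of all probe sets correlated at 0.970 to 0.996 (median 0.986). Controls 1, 9, 2 and 12 stood apart and carried 17.6%, 13.5%, 13.1% and 9.63% of the squared deviations from the gene means, against 2.97% to 7.48% in each of the other pools. Control 2 was the lowest pool for 28.5% of the genes above background and control 12 for 18.0%, and the median level of the olfactory receptor probe sets was highest in the same pools, at 4.66 in control 2 and 4.69 in control 12, against 4.14 to 4.44 in the others. Groups, lists and pairs in which these pools weigh are given with and without them further on.

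The brightest signals came from the machinery that every cell uses. The elongation factor gene Eef1a1 gave the highest mean of all genes, 13.44 ± 0.05 (mean log2 level ± SD, n = 14 pools, as for all values written with ± here). The RNA component of ribonuclease P, Rpph1, averaged 13.11 ± 0.16. The constitutive chaperone gene Hspa8 lay between 12.91 and 13.08 in all 14 pools. All 80 genes whose symbols begin like those of ribosomal proteins were above background, and 37 were among the 100 brightest genes. Their median level was 11.54. This rule by symbol can also take in genes of other function. The 49 measured genes of the ribosomal protein list were all above background too, at a median of 11.77. Ubiquitous genes also filled most places among the 25 brightest genes that do not encode ribosomal proteins. They included the cytoplasmic actins Actg1 (12.78) and Actb (12.48), the glycolytic enzyme Gapdh (12.48), the prolyl isomerase Ppia (12.67), and the heat shock proteins Hsp90ab1 (12.27) and Hsp90aa1 (12.23). Probes differ in how well they bind, so the order of these signals is not an order of RNA amounts.

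A few of these 25 signals belonged to secreted proteins of supporting tissue. Igfbp5, which binds insulin-like growth factors, averaged 12.51 ± 0.28. It was lowest in control 12 at 11.95, had a median of 12.56 and reached 12.99 in control 9. The galactose-binding lectin gene Lgals1 averaged 12.38 ± 0.24, and the matrix glycoprotein gene Sparc averaged 12.05 ± 0.15. Igfbp5 and Lgals1 varied more between pools than Sparc, and Ivns1abp, which encodes an actin-associated kelch protein, varied most among the 25 (12.21 ± 0.41).

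**Figure D1:**
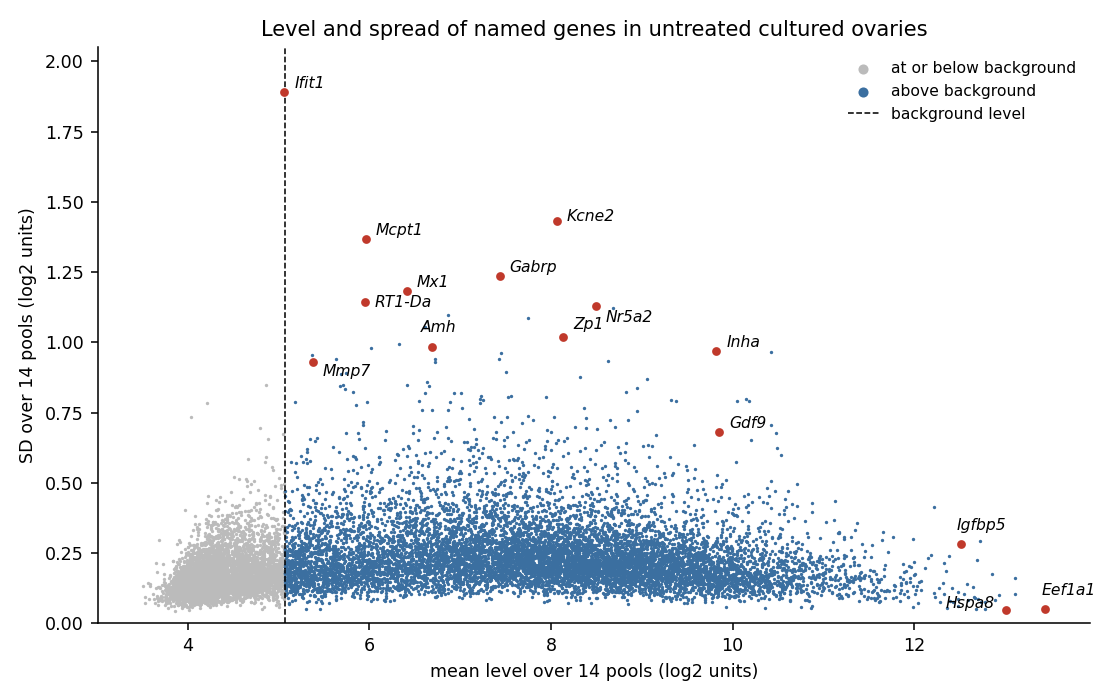
Each point is a named gene, with its mean log2 level over the 14 untreated pools on the x axis and its SD over the same pools in log2 units on the y axis; grey points lie at or below the background level of 5.07 (dashed line) and red points are genes named in the text. The brightest genes, such as Eef1a1 and Hspa8, lie near the bottom, and Kcne2 is the highest point above background at an SD of 1.43; Ifit1, at 1.89, lies on the background line.

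Oocyte genes were present throughout. All 19 measured members of the oocyte list were above background (against 68.2% of all genes), with a median level of 9.11, and Figla, Nobox and Zp2 were among the 13 listed genes not named in the annotation used here. The same 68.2% is the share to set beside the count of each later list. Zp3, a protein of the zona pellucida, averaged 11.22 ± 0.31. It stood at 10.59 in control 1, had a median of 11.37 and reached 11.52 in control 14. Tcl1a, a kinase co-activator that oocytes are rich in, ranged around a median of 11.28 from a low of 10.15 to a high of 11.70. Nlrp5, a maternal effect protein of the oocyte's subcortical complex, lay between 9.87 and 11.40. All 3 were lowest in control 1. Gdf9, the growth factor that oocytes send to granulosa cells, had a level of 7.99 in control 1, a median of 10.10 and a highest level of 10.61 in control 14. Its partner Bmp15 ranged between 7.94 in control 1 and 10.83 in control 2, with a median of 9.63. Kit, the receptor through which oocytes receive Kit ligand, lay between 8.86 and 10.28, and it too was lowest in control 1. In all, 17 of the 19 oocyte genes had their lowest level in control 1, a pool that was lowest for 13.74% of all genes above background, and 9 of the 19 had their highest level in control 14, which was highest for 13.1%.

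Genes of the germ line and of meiosis were above background for 23 of 25 measured members, at a median level of 7.30. Tdrd1, a protein of the germ granule that silences transposons, averaged 10.71 ± 0.42. Dazl, an RNA-binding protein of germ cells, was lowest in control 1 at 9.22 and had a median of 10.25. Ddx4, the germ cell helicase also called VASA, ranged between 7.87 in control 1 and 9.03 in control 3. Parts of the chromosome axis were still measurable. Sycp3, of the lateral element of the synaptonemal complex, had a median of 7.38. Stag3, the meiotic cohesin subunit, had a median of 8.52, with its lowest level, 7.42, in control 2 and its highest, 9.06, in control 3. Spo11, which makes the breaks that start recombination, had no level over 4.51 in any pool, and the meiotic cohesin gene Rec8 none over 4.15, so both stayed below background in 14 of 14 pools. Control 1 had the lowest mean deviation of the list (-0.36), as it had for the oocyte list (-1.24), and control 3 the highest (0.44), against 0.08 there for the oocyte list. Control 3 was the highest pool for 9 of the 23 germ line genes and for 8.02% of all genes, and controls 1 and 2 were the lowest for 9 of the 23 each, and for 13.74% and 28.5% of all genes. The most variable was Taf7l, a germ cell form of a general transcription factor, at 7.94 in control 3 against 5.64 to 6.84 in the other pools.

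Genes of the pregranulosa cells and gonadal soma were above background for 24 of 25 measured members, and Foxl2 and Nr5a1 were not named in the annotation used here. The transcription factor gene Wt1 averaged 10.16 ± 0.29 and Gata4 averaged 9.59 ± 0.29. Amhr2, the receptor for anti-Müllerian hormone, averaged 9.20 ± 0.29. The homeobox gene Lhx2 was the member at or below background (5.02 ± 0.13). The genes that mark growing follicles spread far more widely. The inhibin alpha subunit, Inha, was at 7.04 in control 1 and 8.54 in control 2, and at 9.74 to 10.84 in the other 12 pools. Amh itself was at 4.59 in control 1 and 4.88 in control 2, both under the background level, and at 6.12 to 7.96 in the other 12. Nr5a2, the nuclear receptor LRH-1 of granulosa cells, was at 4.87 in control 1 alone and at 7.83 to 9.42 elsewhere. The receptor gene Fshr had a low of 5.61 in control 1, a median of 7.50 and a high of 7.99 in control 2, so it did not share the low level of Amh and Inha in control 2.

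Of 12 measured genes of steroid formation and theca cells 10 were above background (83.3%, against 68.2% of all genes), at a median level of 6.45. Star, which carries cholesterol into mitochondria, was even between pools (6.85 ± 0.23). The dehydrogenase gene Hsd3b2 ranged between 4.84 and 6.83, and Cyp17a1, the enzyme of androgen synthesis, had a median of 5.17 close to background and a high of 6.44 in control 3. Cyp11a1, which cleaves the cholesterol side chain in the first step of the pathway, did not exceed 4.78 in any pool, and Insl3, a hormone of theca cells, did not exceed 4.60. Both of these stayed below background in all 14 pools. Lhcgr, the receptor for luteinising hormone, varied most, between 4.46 in control 1 and 6.96 in control 6.

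The surface of the ovary was represented by most of its genes. Krt19, a keratin of the surface epithelium, averaged 11.35 ± 0.33 and was highest in controls 1 and 9, at 11.99 and 11.97. Podxl, a sialomucin of mesothelium, lay between 9.42 and 11.04. Msln, the mesothelial surface protein, had a median of 8.17 and its highest level, 9.78, in control 1. Of 17 measured genes of surface epithelium and mesothelium 14 were above background (82%, against 68.2% of all genes). Control 1 was the highest pool for 8 of the 14 and for 17.1% of all genes. Krt18, the usual partner of Krt8, Calb2 and Lgals7 were not above background, Krt18 averaging 4.92 ± 0.22 and Calb2 4.49 ± 0.13.

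Stroma was represented by 20 of 21 measured members above background, at a median level of 10.06. Vim (11.97), an intermediate filament of mesenchyme, Ogn (11.77) and Dcn (11.42), which are small proteoglycans, and the collagen genes Col1a1 (11.71) and Col3a1 (11.44) were all bright. Their SDs lay between 0.17 and 0.31, and Dpt (0.59), Lum (0.57) and Fmod (0.56) had the widest spread among stromal genes. Of 13 measured genes of smooth muscle and pericytes 9 were above background (69.2%, close to the 68.2% of all genes). Tagln, an actin-binding protein of contractile cells, had a median of 7.14 and a single high level of 8.98, in control 1, whereas Myh11, Cnn1 and Lmod1, which define mature smooth muscle, were not above background. Vessels were measurable through 14 of 16 endothelial genes above background (87.5%, against 68.2% of all genes). The angiopoietin receptor gene Tek averaged 8.27 ± 0.26. Cdh5, the cadherin of endothelial junctions, was at 5.65 in control 1, had a median of 6.90 and was highest in control 6 at 7.70. Control 6 was the highest pool for 8 of the 14 endothelial genes and for 4.71% of all genes.

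Of the 4 lists for blood cells, the macrophage list was the one with all its measured members on. All 21 measured members of the macrophage list were above background, although RT1-Ba, a class II gene, lay only just over it (5.07 ± 0.45). Cd14, the receptor for bacterial lipopolysaccharide, averaged 10.10 ± 0.29. C1qc, of the first complement component, had a median of 8.72, a high of 9.43 in control 4 and a low of 6.94 in control 9. Csf1r, the receptor that macrophages need to survive, had a median of 7.51 and a low of 6.34, also in control 9. Control 9 was the lowest pool for 14 of the 21 macrophage genes and for 15.5% of all genes, and the mean deviation of the list was lowest there (-0.82) and highest in controls 10 and 1 (0.65 and 0.62). The median correlation between members was 0.71 over the 14 pools, the highest of the 28 lists, followed by 0.67 in the interferon list and 0.65 in the oocyte list. Without controls 1 and 9 it was 0.62 in the macrophage list, 0.72 in the interferon list and 0.28 in the oocyte list.

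Mast cells were represented by few genes that differed greatly between pools. Of 13 measured members 4 were above background (30.8%, against 68.2% of all genes). Fcer1a, Tpsab1 and Hdc, a receptor subunit, a tryptase and the histamine-forming enzyme, were below background in all 14 pools. Cpa3, the carboxypeptidase of mast cell granules, ranged between 5.19 in control 6 and 8.12 in control 3 around a median of 6.61. The protease gene Mcpt1 was at 4.46 in control 2, had a median of 5.47 and reached 8.72 in control 10. Lymphocyte genes were mostly dim, with 6 of 14 above background (42.9%, against 68.2% of all genes). Among those that define T and B cells, Cd3e (4.56 ± 0.17), Cd8a (4.48 ± 0.17) and Ms4a1 (4.00 ± 0.17) were below background in all pools, but Cd3g was well above it (7.60 ± 0.28).

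Globin RNA was measured in every pool, although only 5 of 14 measured red cell genes were above background (35.7%, against 68.2% of all genes). The alpha globin gene Hba-a3 had its low of 8.13 in control 1, a median of 10.31 and a high of 11.78 in control 6. The beta globin gene Hbb ranged between 8.38 in control 9 and 9.86 in control 14. The genes of red cell precursors Klf1, Ahsp and Slc4a1 were below background in 14 of 14 pools, and Alas2, the first enzyme of haem synthesis in red cells, averaged 5.06 ± 0.27 and was over the background level in 6 pools. The remaining tissues that could have been dissected with the ovary gave little signal. Adipoq, Plin1 and Lep of fat cells, Alb, Apob and Fgb of liver, and Myod1, Myog and Ttn of skeletal muscle were below background in all 14 pools. Of the list for each of these tissues 4 of 13, 1 of 13 and 4 of 13 genes were above background, the liver gene being Cyp2e1 (7.45 ± 0.39). The highest mean was 6.75 in the fat list and 6.51, that of Acta1, in the muscle list. Among 14 genes of testis and Sertoli cells 5 were above background, and Hsd17b3, Sox8 and Acrv1 were below it in every pool.

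**Figure D2:**
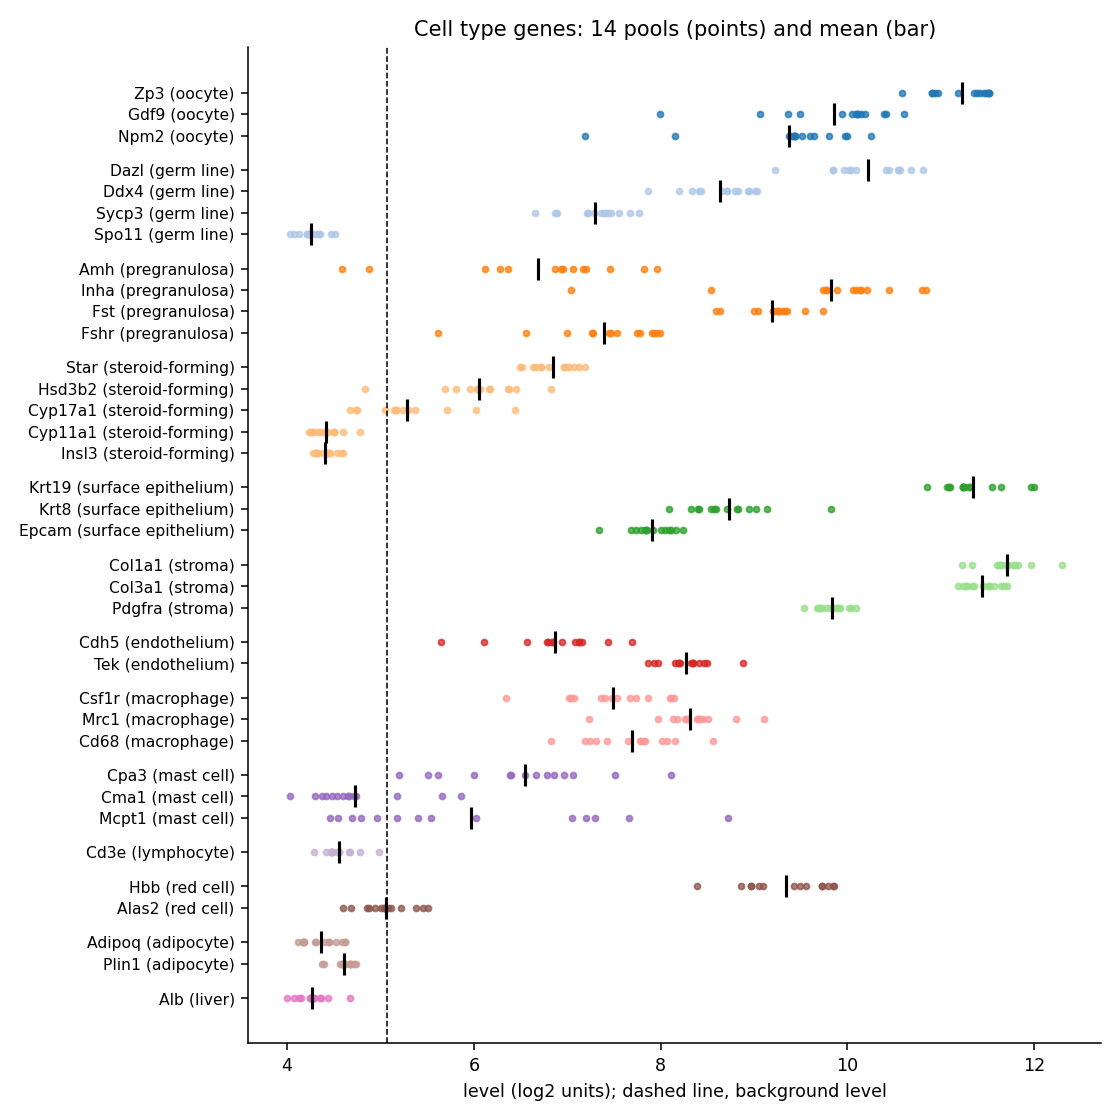
Log2 levels of genes that mark cell types (x axis), with 1 point for each of the 14 pools, a black bar for their mean and a dashed line at the background level of 5.07. Genes of oocytes, epithelium and stroma lie far to the right of the line, Spo11, Cyp11a1, Insl3, Cd3e, Adipoq, Plin1 and Alb lie to its left in all 14 pools, and the order of genes along the axis is not an order of RNA amounts because probes differ.

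The genes of cell division were on throughout. All 21 measured cell cycle genes were above background, led by the cyclins Ccnb2 (11.07 ± 0.26) and Ccnb1 (10.47 ± 0.47). The topoisomerase gene Top2a varied little, between 9.21 and 9.86. Energy genes were also uniformly on. All 46 measured genes of oxidative phosphorylation and all 26 of glycolysis and low oxygen were above background, and 16 of the 26 were highest in control 14, which was highest for 13.1% of all genes. The lactate dehydrogenase gene Ldha reached 12.20 there, against a median of 11.71, and the vasodilator gene Adm reached 6.73, against a median of 5.56. Of 21 measured immediate early genes 14 were above background (66.7%, close to the 68.2% of all genes), led by Ier3 and Jun. Of these 14 genes 8 were highest in control 1, which was highest for 17.1% of all genes. Egr1 stood at 8.66 in control 1, against a median of 7.57, and Atf3 at 6.64, against a median of 5.58. The heat shock genes did not rise together there. Of the 12 above background 3 were highest and 4 lowest in control 1, which was lowest for 13.74% of all genes. Their mean deviation in control 1 was -0.03, against 0.54 for the immediate early list.

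Most genes varied little between pools. The median SD of the 9775 genes above background was 0.219, and 95% of them had an SD below 0.457. Divided into 5 equal classes by level, the genes had a median SD of 0.217 in the dimmest class, 0.248 in the class above it and 0.183 in the brightest. An SD of at least 0.5 was found in 349 genes and of at least 1 in 11. The 10 steadiest genes were Hspa8 (SD 0.05), Snph, Rpl21, Tekt2, Rps4x, Eef1a1, Rpl4, Zfp207, Rras2 and Ywhaq (SD 0.06). Snph and Tekt2 are genes of nerve endings and cilia, with means of 5.46 and 5.31 near background, while the other 8 are bright and include ribosomal proteins. The 22 housekeeping genes had a median SD of 0.143, and the 49 listed ribosomal protein genes 0.152. At the other end, the median SD was 0.865 for the 4 mast cell genes above background, 0.527 for the interferon list and 0.477 for the oocyte list. Without controls 1 and 9 these were 0.768, 0.518 and 0.346.

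The gene of widest spread above background was Kcne2, which encodes a small subunit of potassium channels. It was at 5.08 in control 10 and 5.20 in control 9, at 6.97 in control 1, and at 7.84 to 9.69 in the other 11 pools, a range of 24.4-fold. Controls 10 and 11 were the most alike of all pairs of pools over all probe sets (r = 0.996), but differed in Kcne2, which was at 8.32 in control 11. Among the 100 genes of highest SD, the pool farthest from the median was control 1 for 38 genes, control 9 for 19 and control 10 for 15. Of these 100 genes 88 fell into 8 groups of at least 5 genes whose levels rose and fell together over the pools (average linkage, mean r of at least 0.5). The groups were formed from the same 14 pools in which they are described, so they are a description and carry no test.

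**Figure D3:**
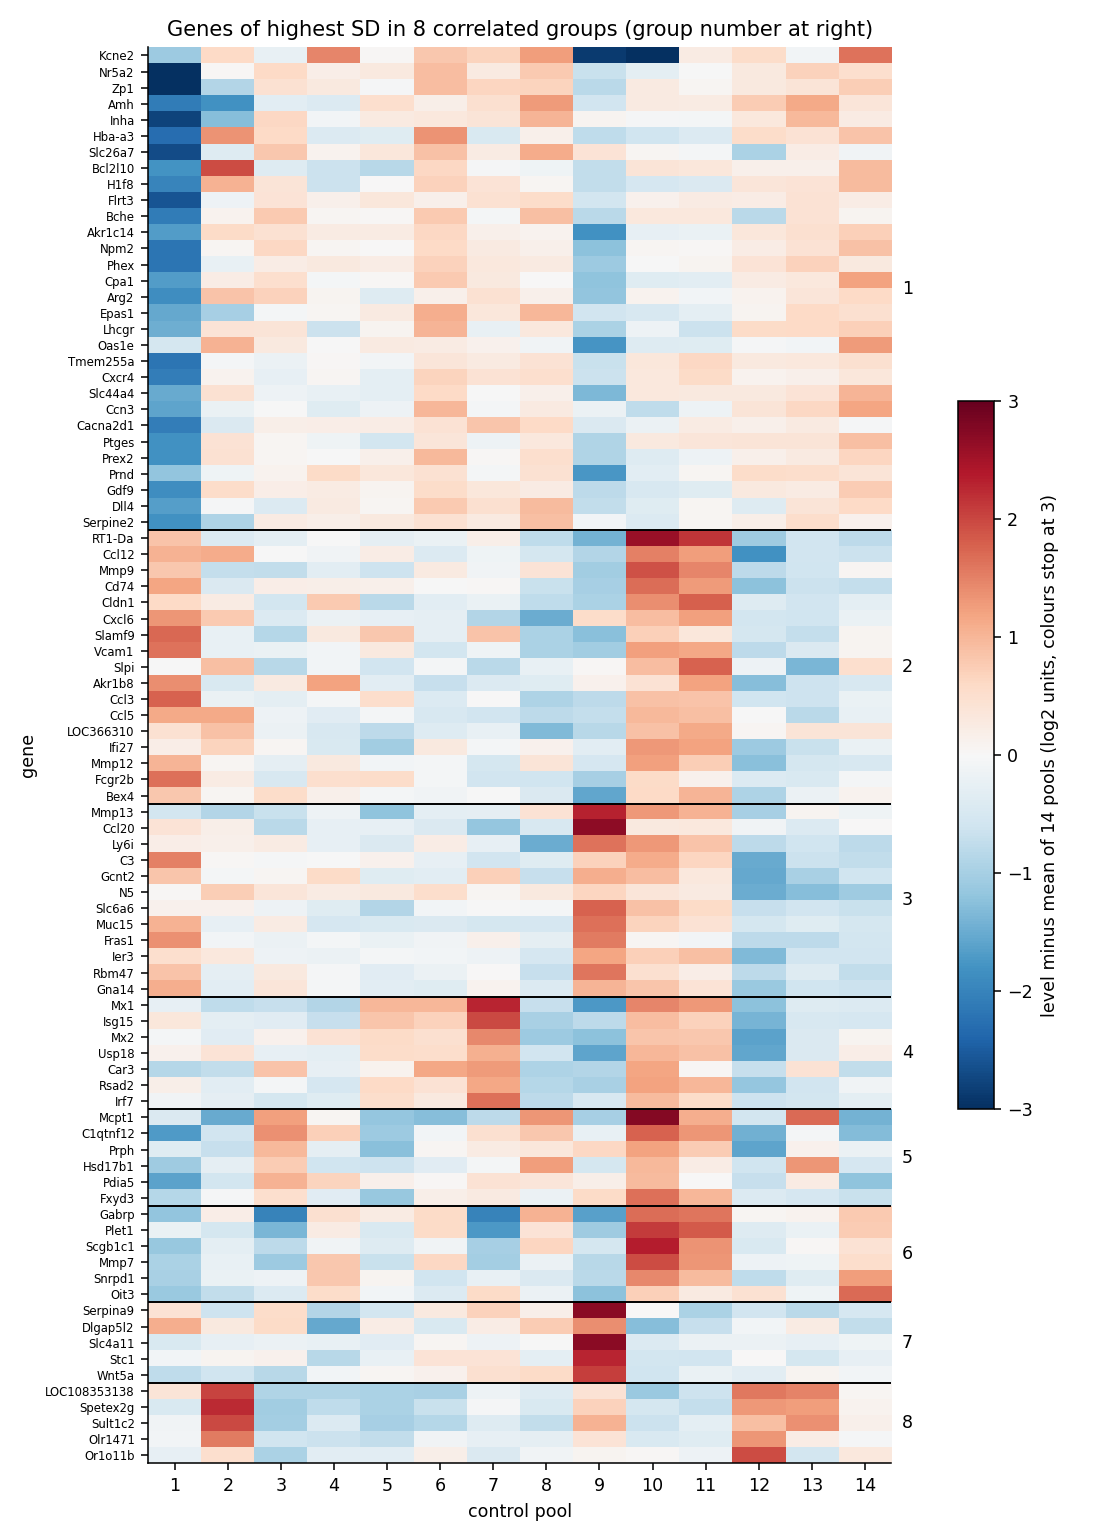
Heat map of the 88 genes in the 8 correlated groups (rows, group number at right) over the 14 control pools (columns), coloured by the level minus the gene's mean in log2 units. Group 1 is low in control 1, group 4 is highest in control 7, groups 5 and 6 in control 10, group 7 in control 9 and group 8 in control 2.

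The group with most members held 30 genes with a mean correlation of 0.71. Of these, 5 were on the oocyte list (Zp1, Bcl2l10, H1f8, Npm2 and Gdf9) and 3 on the pregranulosa list (Nr5a2, Amh and Inha), and Kcne2 was a member too. In control 1 all 30 were below their mean, by an average deviation of -1.96, and 26 of them had their lowest level there. Control 9 was next lowest, with an average deviation of -0.88, and the other 12 pools lay between -0.20 and 0.65. Zp1, a further zona protein, was at 5.10 in control 1, 7.26 in control 2 and 7.33 in control 9, and between 8.11 and 9.07 in the other 11. Npm2, a chaperone of oocyte chromatin, was at 7.19 in control 1 and 8.15 in control 9, and at 9.38 or more elsewhere. The survival gene Bcl2l10 differed from these, since control 2 was its highest pool (9.45) while control 1 was its lowest (5.72). Slc26a7, an anion exchanger, was at 5.94 in control 1 and at 7.68 to 9.75 in the other pools. The group also held the globin gene Hba-a3, the vessel genes Dll4 and Epas1, the chemokine receptor gene Cxcr4 and the enzyme genes Bche, Cpa1, Arg2 and Akr1c14.

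Control 1 carried much of this agreement. Without it the mean correlation of the 30 genes was 0.48, and without controls 1 and 9 it was 0.30, with a median SD of 0.45 in place of 0.74. Nr5a2 had an SD of 1.13 over all pools and 0.45 without control 1, Zp1 1.02 and 0.55, and Inha 0.97 and 0.57. For Amh the SD was 0.98 and 0.81, the smaller change of the 4, because its level in control 2 was low as well. In the same pool the surface epithelium list had a mean deviation of 0.58, the macrophage list of 0.62, the endothelial list of -0.42 and the cell cycle list of -0.29. Their part in the low levels of the follicle genes in control 1 was not tested.

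**Figure D4:**
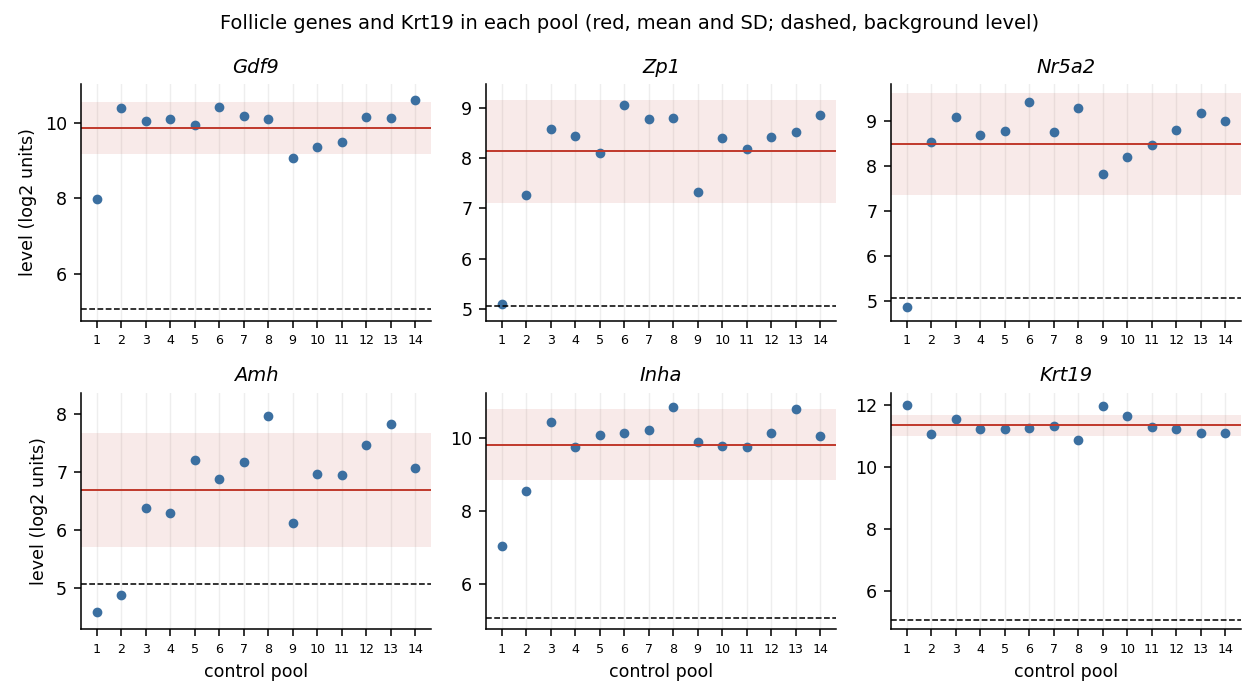
Log2 level (y axis) of Gdf9, Zp1, Nr5a2, Amh, Inha and Krt19 in each of the 14 control pools (x axis), with the mean as a red line, 1 SD on either side as a pink band and the background level of 5.07 dashed. Control 1 is the lowest pool in the first 5 panels and the highest for Krt19, and control 2 is low for Amh (4.88) and Inha (8.54) but not for Gdf9 (10.39).

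Amh and Nr5a2 belong to this group together, although they parted in control 2, where Amh was at 4.88 and Nr5a2 at 8.54. Without control 1 the mean correlation of the group was 0.48, against 0.71 in all pools. NR5A receptors are known to act on the Amh gene in the gonads, so the promoter of Amh is shown. The window runs over the 250 bases before and the 50 after the RefSeq transcription start on the minus strand of chromosome 7 (GRCr8, chr7:9559818-9560117). Capitals mark the letters CAAGGTCA, a motif that NR5A receptors can bind, searched on both strands. The match begins 85 bases before the start. It occurred in 1.48% of 27457 promoter windows of the same length, and in 1 of the 21 windows found by symbol for the 30 genes of the group, that of Amh. It is a match of letters, which says nothing of binding in these ovaries.
Amh: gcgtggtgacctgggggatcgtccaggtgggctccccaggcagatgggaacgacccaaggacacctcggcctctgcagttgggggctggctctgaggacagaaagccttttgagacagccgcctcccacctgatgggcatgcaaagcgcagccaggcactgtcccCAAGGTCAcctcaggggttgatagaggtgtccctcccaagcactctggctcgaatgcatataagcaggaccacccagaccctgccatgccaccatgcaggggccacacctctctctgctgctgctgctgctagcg

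Group 2 held 17 genes, of which 3 were on the macrophage list (RT1-Da, Cd74 and Fcgr2b), with a mean correlation of 0.65, and controls 10, 11 and 1 were its highest pools (average deviations of 1.16, 1.15 and 1.03). RT1-Da, a chain of the class II complex that presents antigen, was at 8.54 and 8.09 in controls 10 and 11, at 6.82 in control 1 and at 4.54 to 6.14 in the other 11 pools. Cd74, the invariant chain of the same complex, had its high of 9.99 in control 10, a median of 8.33 and a low of 7.09 in control 12. The chemokine gene Ccl12 lay between 5.62 in control 12 and 8.94 in control 10. The gelatinase gene Mmp9 reached 7.65 in control 10, against a median of 5.53, and the adhesion molecule Vcam1 reached 8.24 in control 1, against a median of 6.45. Cldn1, a tight junction protein, was also a member, highest in control 11 at 8.21, and so were Cxcl6, Slamf9, Slpi, Akr1b8 and Bex4. Without controls 10 and 11 the mean correlation was 0.49. Group 3 held 12 genes led by the collagenase Mmp13 and the chemokine Ccl20, and 9 of them were highest in control 9. Ccl20 was at 8.36 in control 9 and at 4.54 to 6.09 in the other pools. Mmp13 was at 8.32 in control 9, followed by 7.33 and 7.06 in controls 10 and 11, and its median was 5.81. Ly6i, Gcnt2, N5, Slc6a6 and Muc15 were further members. The complement gene C3 differed in being highest in control 1, at 10.84. Without control 9 the mean correlation of the group was 0.59, against 0.70 in all pools.

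Interferon-inducible genes formed the group of highest mean correlation. The 7 members of group 4, of which all but the carbonic anhydrase gene Car3 are known interferon targets, had a mean correlation of 0.83, and leaving out any 1 pool kept it between 0.80 and 0.86. Mx1, a GTPase that blocks viruses, was at 8.70 in control 7, at 7.40 to 7.87 in controls 5, 6, 10 and 11, at 5.19 to 6.16 in 8 further pools, and at 4.68 in control 9. Isg15, a ubiquitin-like modifier, was at 8.71 in control 7, at 7.41 to 7.66 in controls 5, 6, 10 and 11, and at 5.33 to 7.07 in the other 9. Irf7, the factor that amplifies the response, reached 8.14 in control 7 around a median of 6.20, and Usp18, which removes ISG15 and damps the response, reached 7.72 there around a median of 6.82. The same 5 pools were high for each of these 4 genes. Controls 9 and 12 were the lowest pools of the group, with average deviations of -1.10 and -1.18. Over the whole interferon list 21 of 24 measured genes were above background, and 11 of the 21 were highest in control 7, a pool that was highest for 2.48% of all genes. Bst2, an antiviral membrane protein, was bright but steady (10.53 ± 0.13).

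Ifit1, another gene of this response, departed from the rest. It was at 9.64 in control 10 and 9.38 in control 11, and between 4.13 and 4.68 in the other 12 pools, which is below background in each of them. In control 7, where Mx1 and Isg15 were highest, Ifit1 was at 4.13, not above background. Its mean of 5.07 fell just short of the background level, so it was not among the genes of widest spread counted above, although its SD of 1.89 exceeded that of every other named gene. The related gene Ifit3, also below background on average, was at 6.25 in control 7, 5.70 in control 10 and 4.41 in control 9, and Ifit2 had its highest level, 7.26, in control 7.

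Interferon-stimulated genes are switched on through a short response element, with the letters GAAANNGAAA as its core. The promoters of Irf7 and Rsad2 are shown because both genes belong to the group and both windows held the element, in capitals, on one or the other strand. They span chr1:205799974-205800273 and chr6:48788071-48788370 of GRCr8 (RefSeq), both on the minus strand, and the match begins 69 and 147 bases before the start. The element was in 2 of the 3 windows that could be found by symbol among the 7 genes, the other being that of Mx1, and in 3.77% of 27457 promoter windows of the same length. It was also in 2 of 10 windows found for group 2, 1 of 9 for group 3 and 1 of 21 for group 1. No match in a window says only that these letters are not there.
Irf7: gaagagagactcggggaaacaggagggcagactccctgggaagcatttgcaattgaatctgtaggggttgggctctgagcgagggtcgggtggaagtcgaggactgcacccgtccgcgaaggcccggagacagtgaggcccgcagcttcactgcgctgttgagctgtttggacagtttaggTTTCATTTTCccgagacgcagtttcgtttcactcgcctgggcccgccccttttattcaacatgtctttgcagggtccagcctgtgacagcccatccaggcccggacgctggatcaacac
Rsad2: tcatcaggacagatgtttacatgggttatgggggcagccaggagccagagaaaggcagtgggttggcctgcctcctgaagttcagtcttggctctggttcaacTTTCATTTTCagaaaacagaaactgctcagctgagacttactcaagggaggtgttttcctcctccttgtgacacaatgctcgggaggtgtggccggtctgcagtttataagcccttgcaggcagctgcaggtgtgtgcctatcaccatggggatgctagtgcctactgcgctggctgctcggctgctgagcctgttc

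**Figure D5:**
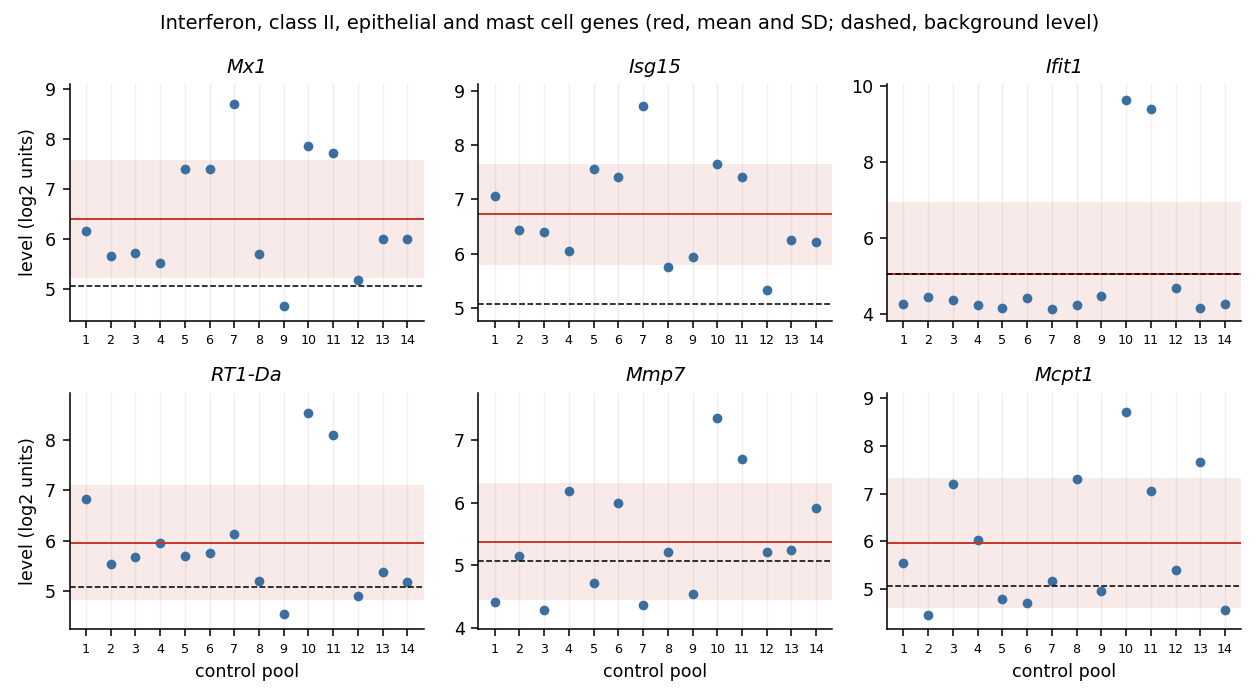
Log2 level (y axis) of Mx1, Isg15, Ifit1, RT1-Da, Mmp7 and Mcpt1 in each of the 14 control pools (x axis), with the mean as a red line, 1 SD on either side as a pink band and the background level of 5.07 dashed. Mx1 and Isg15 are highest in control 7, Ifit1 is near 9.64 and 9.38 in controls 10 and 11 only, and RT1-Da, Mmp7 and Mcpt1 are highest in control 10.

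Group 6 had 6 members and a mean correlation of 0.71, and 4 of them, Gabrp, Plet1, Mmp7 and Scgb1c1, are genes of secretory epithelia. Gabrp, a GABA receptor subunit of secretory epithelia, was at 9.11 and 9.04 in controls 10 and 11 and at 5.43, 5.44 and 5.81 in controls 3, 7 and 9. Plet1, a surface protein of epithelial progenitors, was highest in control 10 at 8.97 and lowest in control 7 at 5.15, with a median of 6.67. Mmp7, a matrix-degrading enzyme of glands, was at 7.34 and 6.70 in controls 10 and 11 and had a median of 5.22. The secretoglobin gene Scgb1c1 was at 7.98 and 6.97 in the same pools, against a median of 5.43. The general epithelial gene Epcam did not vary in this way (7.90 ± 0.23), and of 21 measured genes of tubal and secretory epithelium 14 were above background (66.7%, close to the 68.2% of all genes). Pax8, a factor of the reproductive tract epithelium, ranged between 4.97 in control 3 and 6.24 in control 11. The list as a whole had its highest mean deviations in controls 11 and 10 (0.64 and 0.61), and its part in group 6 was not tested.

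Group 5 brought together the mast cell protease Mcpt1, the adipokine-like gene C1qtnf12 and the oestrogen-forming enzyme Hsd17b1, among 6 genes with a mean correlation of 0.66. C1qtnf12 was at 6.99 in control 1, had a median of 8.61 and reached 10.46 in control 10. Hsd17b1 was highest in control 13, at 7.18, followed by control 8 at 7.11, around a median of 5.54. Group 7 rested on a single pool. Its members Serpina9, Slc4a11, Stc1, Wnt5a and Dlgap5l2 were all highest in control 9, where the hormone gene Stc1 was at 11.24 (median 8.79) and the signalling protein gene Wnt5a at 9.45 (median 7.29). Without control 9 their mean correlation was 0.26, against 0.69 in all pools, and the SD of Slc4a11 was 0.14, against 0.79. The mean of Slc4a11, 5.18, was only just over the background level of 5.07, and it passed that level through control 9.

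Group 8 held 5 genes, among them Olr1471 and Or1o11b, which are named as olfactory receptors. Its average deviation was 1.66 in control 2, 1.41 in control 12, 0.76 in control 13 and 0.53 in control 9, and between -0.90 and 0.12 in the other 10. LOC108353138 was at 8.65, 8.21 and 8.10 in controls 2, 12 and 13 and at 5.50 to 7.04 elsewhere. Sult1c2, a sulfotransferase, was at 7.35 in control 2 and below background in 7 pools. The median of all olfactory receptor probe sets was 4.66, 4.69 and 4.44 in controls 2, 12 and 9, and 4.32 in control 13, and its part in this group was not tested. Without controls 2 and 12 the mean correlation of the 5 genes was 0.58, against 0.78 in all pools. Of the genes outside the groups, Fam111a, a replication factor that restricts viruses, varied most, with 10.15 in control 10, 9.15 in control 2 and 6.81 to 8.89 in the others. The mast cell gene Mcpt1l1 was highest in control 3, at 8.34, unlike Mcpt1, which was highest in control 10.

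For the 18 of 30 listed pairs of genes that had both members named, the correlation over the 14 pools was tested by permutation (100000 permutations, two-sided), and p-values were adjusted over the 18 pairs by the Benjamini-Hochberg method. The pairs were chosen with earlier results of these data known, and the adjustment over 18 pairs does not take account of that choice. The Pearson correlation passed an adjusted threshold of 0.05 in 9 pairs. The lowest absolute r among these was 0.65, a value that 8.22% of all 47770425 pairs of genes above background reached or exceeded. The permutations treat the 14 pools as independent of each other. If pools shared a litter, a day of culture, RNA processing or an array run, all these p-values could be too small. The labels give none of these.

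Of the 9 pairs, 3 also passed by Spearman's rho and held without the 2 pools farthest from the median of the first gene. Mmp7 and the epithelial factor Elf3 had r = 0.91 (permutation test, p = 2e-05, adjusted p = 0.00018) and rho = 0.90 (p = 4e-05, adjusted p = 0.00036), and r was 0.78 without controls 10 and 11. The mast cell proteases Cpa3 and Cma1 had r = 0.91 (permutation test, p = 1e-05, the smallest that the permutations can give, adjusted p = 0.00018) and rho = 0.95 (p = 1e-05, adjusted p = 0.00018), and r was 0.84 without controls 3 and 6. The red cell genes Hbb and Alas2 had r = 0.77 (permutation test, p = 0.00112, adjusted p = 0.00403) and rho = 0.77 (p = 0.00189, adjusted p = 0.0113), and r was 0.78 without controls 8 and 9. In each of these pairs the gene named second was not above background on average. Elf3 was below the background level in all 14 pools, with a high of 5.05 in control 10, Cma1 was over the background level in 3 pools, and Alas2 in 6.

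The other 6 pairs changed with the pools that stood apart, and 5 of them weakened without those pools. Gdf9 and the epithelial keratin gene Krt19 ran against each other, with r = -0.83 (permutation test, p = 0.00038, adjusted p = 0.00228) and rho = -0.63 (p = 0.0178, adjusted p = 0.064), and r was -0.56 (p = 0.057) without controls 1 and 9. The oocyte genes Gdf9 and Zp3 had r = 0.79 (permutation test, p = 0.00087, adjusted p = 0.00392) and rho = 0.53 (p = 0.052, adjusted p = 0.156), and r was 0.52 (p = 0.078) without controls 1 and 9. Inha and Inhba, which form inhibin A, had r = 0.72 (permutation test, p = 0.00255, adjusted p = 0.00765) and rho = 0.46 (p = 0.0961, adjusted p = 0.247), and r was 0.35 (p = 0.266) without controls 1 and 2. Gdf9 and Ddx4 had r = 0.70 (permutation test, p = 0.00709, adjusted p = 0.0169) and rho = 0.28 (p = 0.324, adjusted p = 0.529), and r was 0.28 (p = 0.376) without controls 1 and 9. The macrophage receptors Csf1r and Mrc1 had r = 0.65 (permutation test, p = 0.0146, adjusted p = 0.0292) and rho = 0.43 (p = 0.128, adjusted p = 0.284), and r was 0.43 (p = 0.168) without controls 1 and 9. Without the farthest pools none of these 5 relations had a p under 0.05, and to that extent they rest on those pools. Gdf9 and Krt19 (r = -0.76 without control 1) and Gdf9 and Zp3 (r = 0.64 without control 1) still passed with any 1 pool left out. For Csf1r and Mrc1 the correlation was 0.71 without control 1 and 0.33 without control 9.

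The germ cell genes Ddx4 and Dazl were the exception, since their correlation rose without the farthest pools. They had r = 0.68 (permutation test, p = 0.00749, adjusted p = 0.0169) and rho = 0.64 (p = 0.0163, adjusted p = 0.064), and r was 0.93 (p = 2e-05) without controls 1 and 2. Leaving out control 1 alone gave r = 0.44 (adjusted p = 0.299), because in control 2 Dazl was at its highest, 10.81, while Ddx4 was low, at 8.20. Of the 9 pairs that did not pass, the meiotic partners Sycp1 and Sycp3 had r = 0.19 (permutation test, p = 0.526, adjusted p = 0.676). The collagens Col1a1 and Col3a1 had r = 0.41 (permutation test, p = 0.145, adjusted p = 0.262), and Star and Cyp11a1 had r = 0.13 (permutation test, p = 0.65, adjusted p = 0.731), with Cyp11a1 below background. With 14 pools these values do not show that such genes vary independently.

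The genes whose levels over the 14 pools ran most like that of Gdf9 were Prex2, Zfp57, Pld1, Il17rb, C1h10orf90 and Dnmt1, with r between 0.95 and 0.96. Zfp57 and Dnmt1 encode keepers of imprinted DNA methylation, with mean levels of 10.17 ± 0.40 and 10.61 ± 0.47. Nearest to Ddx4 were Rbak, Riox2, Ddx59, Mael, Gyg1 and Nek1 (r between 0.94 and 0.96), of which Mael is a germ granule gene of the germ line list. Krt19 was closest to Rasal1, Nherf1, Megf6, Bcam, Rbm47 and Lrp2 (0.91 to 0.96), and Nherf1 and Lrp2 belong to the apical membrane of epithelia. Csf1r ran with Ptprc, Pmvk, Rac2, C3ar1, Fcer1g and C1qa (0.92 to 0.94), most of them leucocyte genes. Cpa3 ran with the mast cell gene Mcpt1l1 (0.86), and then with Nbn, Snrpb2, Spdya, Smc4 and Scfd1 (0.75 to 0.80), none of them on the mast cell list. Mmp7 ran with Plet1, Cdkl1, Scgb1c1, Gabrp, Slc15a2 and Gatd1 (0.85 to 0.92). Hbb was nearest to the stromal gene Ogn (0.88) and to Rps26 (0.87), ahead of the globin gene Hbb-b1 (0.86), and then to Lca5, Zcchc10 and Tor3a. The genes nearest to Star were Prrx1, Ppp2r1a, Samsn1, Camk2d, Cybb and Agtrap (0.85 to 0.91), none of them on the steroid list. Top2a ran with Tmem126a, Snrpb2, Pgm3, Kin, Sdf4 and Rab27b (0.83 to 0.87), none of them on the cell cycle list. Adipoq, below background in all pools, had no neighbour over 0.68. Without controls 1 and 9 the same 6 genes correlated with Gdf9 at 0.77 to 0.91, with Ddx4 at 0.90 to 0.96, with Krt19 at 0.73 to 0.90 and with Csf1r at 0.82 to 0.94. These correlations are over 14 pools that include controls 1 and 9, they were picked as the highest among 9775 genes, and they are given as a description only.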

How the data were processed

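Total RNA of pooled cultured ovaries was hybridised to 1-colour Affymetrix arrays, and the deposited values are log2 levels that the authors made with RMA in Partek, normalizing the arrays of the growth factor set together. The annotation file that the authors name is of the rat build rn4, and no coordinates of that build are used here. Normalizing arrays together removes differences in overall brightness, so the levels are relative and the RNA per ovary is not measured. The 14 control columns were matched to samples by their titles, and 30 columns of other samples were not used. Probe sets were named from the platform annotation of GEO, with 15097 carrying 1 symbol, 323 several and 11922 none, and only the first kind was named. A gene was read from its brightest probe set. No pools were duplicates, since 72 to 291 probe sets had identical values between any 2 pools. The labels call the pools biological replicates.

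Means and SDs were computed in pandas 2.3.3 and numpy 2.4.6 under Python 3.11.15, ranks and clustering used scipy 1.17.1, and figures were drawn in matplotlib 3.10.9. Steps were tested on simulated data. Arrays carry no read depth, and the number of arrays limits the precision. No groups of samples were compared, and the permutation test of gene pairs was the only test. The rule for genes to be named took the 25 genes of highest mean other than ribosomal protein genes and mitochondrial transcripts, the 25 of highest and 10 of lowest SD, in each list the 4 brightest, the 3 of highest SD and defining genes at background, the 6 genes most like each anchor gene, the listed pairs and the leading 8 genes of each group. Not every gene it took is printed. Other list members named in the text were chosen after their values were seen. Members, lists and pairs were chosen with earlier results of these data known. Promoters are from RefSeq (GRCr8), matched by symbol. Alternatives covered normalization, centring, the probe set rule, the background level, the measure of spread and pools left out.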

Additional observations from a re-analysis of the deposited data

How the results depend on the processing

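The count of genes above background was 9775 and lay between 9745 and 9841 when single pools were left out, and it was 8932 with the background at the 99th percentile and 8391 with it at the median of all probe sets. The count of genes with an SD of at least 0.5 was 349 and lay between 239 (without control 1) and 391 with single pools left out. It was 210 by the median absolute deviation, and 170 without controls 1 and 9, an alternative chosen after seeing the data. Of the 25 genes of highest SD, 13 remained by the median absolute deviation and 16 without controls 1 and 9. Of the 25 brightest genes, ribosomal protein genes included, 18 remained when a gene was read as the mean of all its probe sets. Under other normalizations or with pools left out, 24 or 25 remained. Of the 18 gene pairs 9 passed, and 6 to 9 with single pools left out. Without control 1 the pairs Ddx4 and Dazl, Inha and Inhba, and Gdf9 and Ddx4 no longer passed, and Csf1r and Mrc1 did not pass without control 8 or without control 9. By Spearman's rho 3 pairs passed, and 3 without controls 1 and 9. Without controls 2 and 12, also chosen after seeing the data, the 3 counts were 9898, 335 and 9. None of the 198 repeated correlations of single called pairs changed sign, 179 still passed and 19 did not. These repeats reuse the same pools and are not independent checks. Of the 19, 6 were by Spearman's rho and 6 without controls 1 and 9. The cause of these changes was not tested. No paired analysis was possible because only 1 group was described. The number of arrays and the unknown litters, culture days, RNA processing and array runs limit what the spread between pools can be assigned to.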

Other observations

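Genes of energy supply, protein synthesis and cholesterol synthesis added further patterns. All 15 measured genes of cholesterol synthesis were above background, against 68.2% of all genes. The list had its highest mean deviations in controls 10 and 11 (0.31 and 0.27) and its lowest in control 2 (-0.21). Of the 15 genes 12 were below their mean in control 2, as were 7073 of all 9775 genes above background. Of the 46 genes of oxidative phosphorylation 19 were highest in control 10, a pool that was highest for 7.64% of all genes above background. Of the 49 ribosomal protein genes 18 were lowest in control 12, which was lowest for 18.0%. Nerve genes were sparse, with 6 of 18 measured members above background (33.3%, against 68.2% of all genes), and the list was highest in control 10 (0.45). These lists were described in the same pools in which the patterns were seen, and no test was made.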
